A study of Mus musculus with 18 samples.

Results

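The *Cd3d*, *Cd3e*, *Cd3g*, *Cd8a*, *Cd8b1*, *Nkg7*, *Gzma*, *Gzmb*, *Cd79a* and *Cd79b* transcripts, which mark T, NK and B cells, were examined in mouse liver RNA-seq data. They are 10 of the 20512 genes listed, were chosen by name from a list of lymphocyte markers, and all 10 passed the minimum mean log2 value of 2 that 13268 genes passed. Livers of 18 male C57BL/6 mice were profiled, 1 library per liver and 6 livers in each of 3 groups. The chow group ate chow with 13% of kcal from fat and the HFD group a high-fat diet with 60% of kcal from fat for 4 months, starting at 6 to 7 weeks of age. The HFD+AC261066 group ate the same HFD and for the last 2 months was given AC261066, a synthetic retinoid that activates RARβ2 (an isoform of a retinoic acid receptor), in its drinking water (3 mg in 100 ml). The drinking water of all 3 groups held 0.2% DMSO in those months, and no group received AC261066 on chow. The comparisons ask which lymphocyte transcripts differ in liver with the diet and with the agonist.

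T cells recognize antigen through a receptor that signals through the CD3 chains, and cytotoxic T cells carry the CD8 coreceptor, a pair of an alpha and a beta chain. NK cells and cytotoxic T cells kill through granules that deliver granzymes into the target cell. B cells use membrane immunoglobulin, which signals through the heterodimer CD79A and CD79B. The liver is rich in resident NK and T cells, and lymphocytes accumulate there in steatohepatitis, but they are a small part of a tissue that consists mainly of hepatocytes. In bulk tissue, fewer cells of a type and less RNA per cell cannot be told apart.

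Expression was given as log2 values made by the authors, from which the depth of a library cannot be read. *Alb*, serum albumin, had a mean log2 value of 21.14 ± 0.16 (SD, n = 6) in chow livers, 21.06 ± 0.08 in HFD and 21.02 ± 0.19 in HFD+AC261066, levels found in liver. On the first principal component of the tested genes (29.3% of variance), HFD+AC261066 replicate 3 lay at -12.5, inside the chow range of -21.4 to -10.9, while the other 5 livers of its group lay between 3.53 and 7.22. The marker tests, list counts and pair correlations below were also computed without that library. For each gene, libraries 1 to 3 and libraries 4 to 6 had the same mean, to within 4.4e-14, so that these were taken as the sets whose difference the authors had removed.

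All 10 markers were near the lower end of the tested range. Their mean log2 values ran from 2.32 for *Cd8b1* to 4.90 for *Cd79a*, and only 1.75% and 15.8% of tested genes had a lower mean than these. The median within-group SD was 0.10 for tested genes with a mean of 2 to 3, 0.13 for those of 3 to 4, 0.17 for those of 4 to 6 and of 6 to 8, and 0.13 for those of 8 to 10 and above, and it was 0.12 for the markers, ranging from 0.08 (*Cd8b1*) to 0.25 (*Cd79a*). The transform behind the values is not given in the sources used here, but low values among them lie close to the mean of their gene. The SDs and differences given for these low markers may therefore understate the true sizes, and the levels are approximate. Divided by the length of the exons, the level (2 raised to the log2 value) in chow livers was highest for the B cell receptor chains, at 19.5 ± 1.61 per kb (SD, n = 6) for *Cd79a* and 18.9 ± 2.35 for *Cd79b*, which did not differ beyond their spread. *Nkg7* followed at 12.5 ± 1.45, *Cd3g* at 9.53 ± 0.64, *Cd3e* at 7.06 ± 0.62 and *Cd3d* at 6.95 ± 0.34 per kb, the last 2 again within their spread. The granzymes stood at 6.20 ± 0.46 (*Gzma*) and 5.10 ± 0.41 (*Gzmb*), and the CD8 chains were lowest at 3.30 ± 0.10 (*Cd8b1*) and 2.88 ± 0.23 (*Cd8a*).

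Few of these markers passed the test in any comparison. In HFD livers against chow, *Cd8b1* alone rose, 1 of 10 markers, where 14.2% of all tested genes rose and 15.0% fell (limma across 13268 genes, Benjamini-Hochberg adjusted p under 0.1). In HFD+AC261066 livers against HFD none of the 10 was called by limma, where 1.27% of tested genes rose and 1.54% fell; *Cd79a* and *Cd3e*, 2 of 10, had an unadjusted p under 0.05, as did 15.7% of all tested genes. In HFD+AC261066 livers against chow, *Cd3g*, *Cd8b1* and *Cd79b* rose, 3 of 10, where 8.22% of tested genes rose and 8.45% fell. No marker fell in any comparison. The median difference over the 10 markers was 0.07, 0.01 and 0.13 on the log2 scale in these comparisons, beside a median over all tested genes of 0.0060, 5.2e-05 and 0.0036. Without HFD+AC261066 replicate 3, 1, 0 and 2 markers were called (*Cd79b* was lost) and the medians were 0.07, -0.0014 and 0.11. In that fit 2038, 143 and 1391 of 13268 tested genes rose and 2121, 159 and 1420 fell. For every marker and comparison the values of the groups overlapped, and the share of all tested genes that overlap was not computed. The HFD and chow livers each serve in 2 of the comparisons, so the comparisons are not independent of each other.

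**Figure D1:**
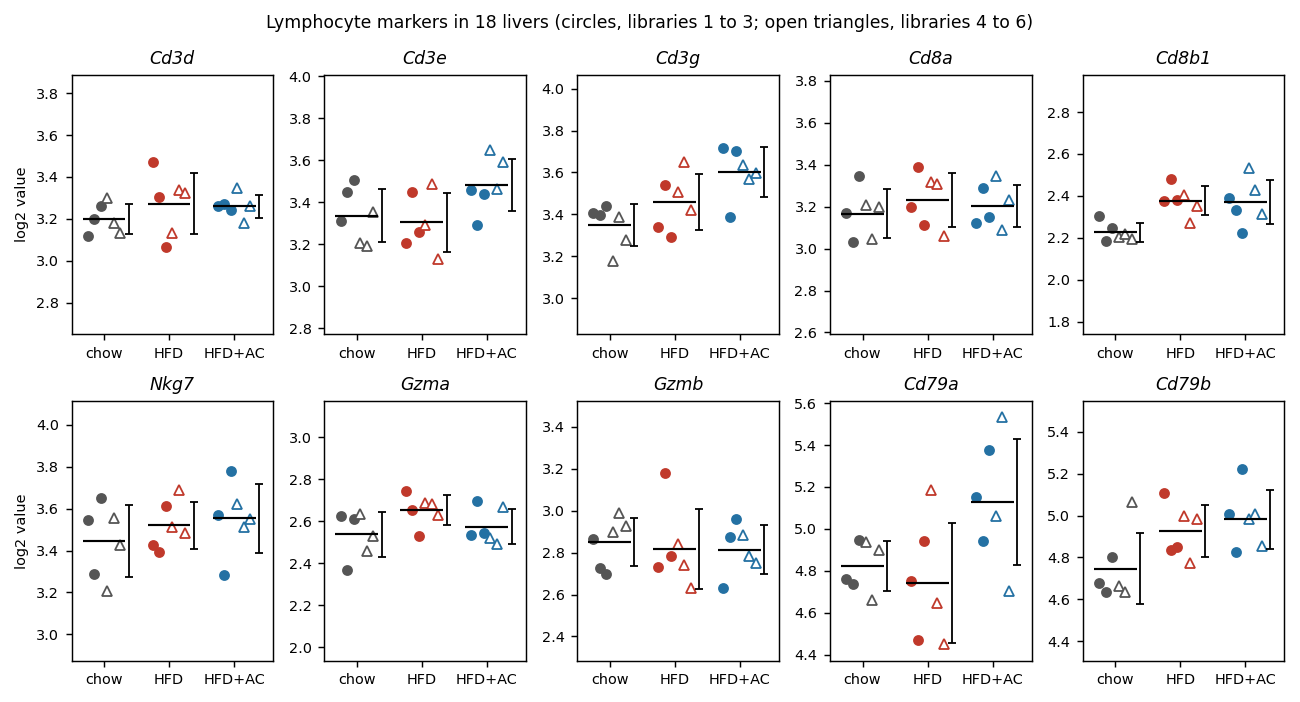
Log2 value of each of the 10 markers (vertical axis, of equal span in every panel) in each library of the chow, HFD and HFD+AC261066 (HFD+AC) groups. Horizontal lines are group means and the bars beside them the SD of 6 livers; the groups overlap in every panel, and *Cd8b1* has the smallest spread and *Cd79a* the largest.

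**Figure D2:**
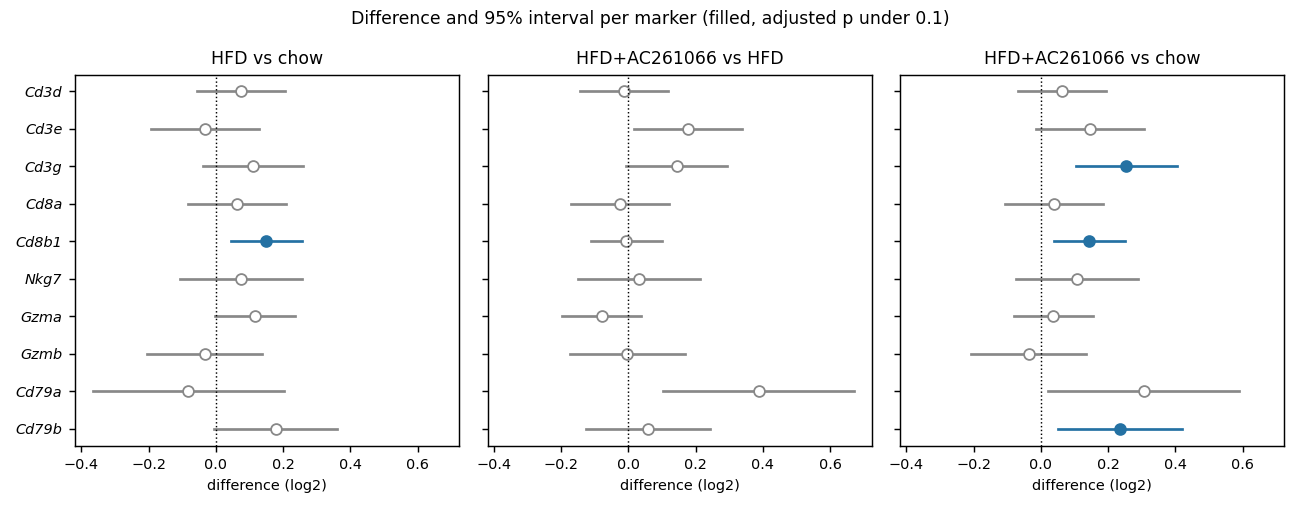
Difference in log2 value (horizontal axis) with its 95% interval for each marker in the 3 comparisons. Filled points passed the test at an adjusted p under 0.1: *Cd8b1* in HFD against chow, none in HFD+AC261066 against HFD, and *Cd3g*, *Cd8b1* and *Cd79b* in HFD+AC261066 against chow.

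The CD3 chains are invariant subunits of the T cell receptor complex that carry its signal into the cell, and their genes lie together on chromosome 9. On mm9, *Cd3g* (44777655 to 44788514, minus strand) and *Cd3d* (44789876 to 44795135, plus strand) are read away from each other from starts separated by 1361 bases, and *Cd3e* (44806826 to 44817673, minus strand) lies 11690 bases beyond *Cd3d*. Promoter sequences, 250 bases before to 50 after each start, were taken from RefSeq on GRCm38.p6 and matched 8 of the 10 markers, with no entry for *Cd8b1* and *Cd79b*. The CD3 promoters are shown because these neighbours share a complex and a locus but were not called together. The windows are chr9:44980382-44980681 (minus strand) for *Cd3g*, chr9:44981536-44981835 (plus strand) for *Cd3d* and chr9:45009562-45009861 (minus strand) for *Cd3e*. Capitals mark matches, on either strand, to AGGAAG, a 6-letter form of the sites that ETS factors of lymphocytes bind. The shorter core GGAA and other forms were not searched.
Cd3g: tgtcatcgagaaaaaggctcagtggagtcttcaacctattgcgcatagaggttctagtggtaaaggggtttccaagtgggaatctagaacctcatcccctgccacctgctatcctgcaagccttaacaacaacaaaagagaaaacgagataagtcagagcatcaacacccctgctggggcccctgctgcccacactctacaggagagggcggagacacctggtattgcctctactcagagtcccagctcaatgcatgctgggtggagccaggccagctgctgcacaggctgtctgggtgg
Cd3d: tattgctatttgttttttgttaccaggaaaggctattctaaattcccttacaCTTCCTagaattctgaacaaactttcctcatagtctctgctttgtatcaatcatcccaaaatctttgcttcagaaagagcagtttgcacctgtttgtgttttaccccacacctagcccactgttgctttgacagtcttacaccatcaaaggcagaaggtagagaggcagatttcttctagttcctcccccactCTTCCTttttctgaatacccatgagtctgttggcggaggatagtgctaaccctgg
Cd3e: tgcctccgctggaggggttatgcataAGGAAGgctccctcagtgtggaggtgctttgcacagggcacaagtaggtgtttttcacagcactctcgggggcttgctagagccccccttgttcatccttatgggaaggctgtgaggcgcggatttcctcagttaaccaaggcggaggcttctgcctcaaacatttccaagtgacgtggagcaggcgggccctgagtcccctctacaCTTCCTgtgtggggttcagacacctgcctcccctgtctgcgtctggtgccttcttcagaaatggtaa
The *Cd3d* window held 2 such matches, starting 198 and 5 bases before the start, and that of *Cd3e* held 2, starting 224 and 17 bases before it. The *Cd3g* window held no match to these 6 letters, although it does hold the shorter GGAA. Over the 32851 RefSeq promoters of this length, 35.4% held at least 1 match, as did 4 of the 8 marker promoters. Searched in the same way, the RUNX motif TGTGGT was in 3 of the 8 (16.8% of all promoters), the E-box CANNTG in all 8 (72.3%) and the octamer ATGCAAAT (1.74%) in none. No matches overlapped in the windows printed, and a match is only a description of the letters.

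*Cd3g* encodes the gamma chain. Its log2 value ran from 3.18 to 3.44 in chow livers (median 3.39), from 3.29 to 3.65 in HFD livers (median 3.46) and from 3.39 to 3.72 in HFD+AC261066 livers (median 3.62). Thus 5 of 6 HFD+AC261066 livers lay above every chow liver, and replicate 2 lay within the chow range. The level rose from 10.2 ± 0.69 (SD, n = 6) in chow to 12.2 ± 0.97 in HFD+AC261066, a log2 difference of 0.25 (SE 0.07, limma adjusted p = 0.0341). Against chow the HFD livers differed by 0.11 (SE 0.07, adjusted p = 0.287), and HFD+AC261066 livers differed from HFD livers by 0.14 (SE 0.07, adjusted p = 0.344). The *Cd3g* call against chow was lost in 1 of 29 alternative analyses, that of libraries 1 to 3 alone, where the difference was 0.19 (adjusted p = 0.395).

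*Cd3e* encodes the epsilon chain, which pairs with both the gamma and the delta chain. Its values ran from 3.19 to 3.50 in chow (median 3.33), from 3.13 to 3.49 in HFD (median 3.28) and from 3.29 to 3.65 in HFD+AC261066 (median 3.46). All 6 HFD+AC261066 livers lay above the median of HFD livers, and 2 lay above every HFD liver. The difference from HFD was 0.18 (SE 0.08, limma unadjusted p = 0.0320, adjusted p = 0.269), which did not pass the test over all genes. Against chow the difference was 0.15 for HFD+AC261066 (adjusted p = 0.232) and -0.03 for HFD (adjusted p = 0.801).

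*Cd3d* encodes the delta chain and differed least of the CD3 genes with the agonist. Values ran from 3.12 to 3.30 in chow (median 3.19), from 3.07 to 3.47 in HFD (median 3.31) and from 3.18 to 3.35 in HFD+AC261066 (median 3.26), and HFD livers were the most spread, with 4 above and 1 below every chow liver. The log2 differences were 0.07 (95% interval -0.06 to 0.21) for HFD against chow, -0.01 (-0.14 to 0.12) for HFD+AC261066 against HFD and 0.06 (-0.07 to 0.19) for HFD+AC261066 against chow.

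The CD8 genes also neighbour each other, on chromosome 6 of mm9, where *Cd8b1* (71272830 to 71287471) and *Cd8a* (71323421 to 71329165) lie on the plus strand with 35949 bases between them. *Cd8b1* encodes the beta chain, found mainly on conventional cytotoxic T cells. It ran from 2.19 to 2.31 in chow livers (median 2.21), from 2.27 to 2.48 in HFD (median 2.38) and from 2.22 to 2.53 in HFD+AC261066 (median 2.36). Of the 6 livers on HFD, 5 lay above every chow liver, and likewise 5 of the 6 on HFD+AC261066. The level per library was 4.68 ± 0.15 (SD, n = 6) in chow, 5.20 ± 0.25 in HFD and 5.18 ± 0.38 in HFD+AC261066. *Cd8b1* rose by 0.15 with HFD (SE 0.05, limma adjusted p = 0.0423) and was 0.14 above chow in HFD+AC261066 livers (SE 0.05, adjusted p = 0.0771), and these 2 groups differed by -0.01 (95% interval -0.11 to 0.10). The first call was lost under quantile normalization (0.10, adjusted p = 0.182) and within either set of libraries (adjusted p = 0.193 and 0.204); the second was lost in 13 of 29 alternatives, among them the replicate block (adjusted p = 0.103), quantile normalization (adjusted p = 0.194) and libraries 1 to 3 alone (adjusted p = 0.650), and when chow replicate 2, 4, 5 or 6 or HFD+AC261066 replicate 1, 4 or 5 was left out (adjusted p from 0.112 to 0.178).

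*Cd8a* encodes the alpha chain, which is also found as a homodimer on innate-like T cells and on some dendritic cells. Its values ran from 3.03 to 3.34 in chow (median 3.19), from 3.06 to 3.39 in HFD (median 3.25) and from 3.09 to 3.34 in HFD+AC261066 (median 3.19). The groups lay over nearly the same range. The differences were 0.06 (95% interval -0.08 to 0.21) for HFD against chow, -0.03 (-0.17 to 0.12) for HFD+AC261066 against HFD and 0.04 (-0.11 to 0.18) for HFD+AC261066 against chow.

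Of the markers shared by NK cells and cytotoxic T cells, none passed the test. *Nkg7* (mm9 chromosome 7, 50692443 to 50693616) encodes a membrane protein of cytotoxic granules and ran from 3.21 to 3.65 in chow (median 3.49), from 3.39 to 3.69 in HFD (median 3.50) and from 3.28 to 3.78 in HFD+AC261066 (median 3.56). Its difference was 0.07 (SE 0.09, limma adjusted p = 0.576) for HFD against chow and 0.11 (adjusted p = 0.454) for HFD+AC261066 against chow. *Gzma* (chromosome 13, 113884033 to 113891187), the tryptase granzyme A, ran from 2.37 to 2.64 in chow (median 2.57), from 2.53 to 2.74 in HFD (median 2.67) and from 2.49 to 2.70 in HFD+AC261066 (median 2.54). For *Gzma*, 4 of 6 HFD livers lay above every chow liver, and the HFD difference was 0.12 (SE 0.06, unadjusted p = 0.0531, adjusted p = 0.149); without HFD replicate 3 it was 0.14 (adjusted p = 0.0961), past the threshold. HFD+AC261066 differed from HFD by -0.08 (SE 0.06, adjusted p = 0.534) for this gene. *Gzmb* (chromosome 14, 56877693 to 56881097), granzyme B, which activates caspases in the target cell, ran from 2.70 to 2.99 in chow (median 2.88), from 2.63 to 3.18 in HFD (median 2.76) and from 2.63 to 2.96 in HFD+AC261066 (median 2.83). The highest HFD value of *Gzmb* belonged to replicate 2, and its differences in the 3 comparisons lay between -0.04 and -0.0030, with 95% intervals reaching from -0.21 to 0.17.

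The CD79 chains carry the signal of the B cell receptor. *Cd79a* (mm9 chromosome 7, 25682400 to 25687216) ran from 4.66 to 4.94 in chow livers (median 4.83), from 4.45 to 5.19 in HFD (median 4.70) and from 4.70 to 5.53 in HFD+AC261066 (median 5.11). It was the most variable of the 10 markers, with 3 HFD livers below and 1 above every chow liver, and with 4 of 6 HFD+AC261066 livers above every chow liver. The level was 28.4 ± 2.35 (SD, n = 6) in chow, 27.2 ± 5.59 in HFD and 35.6 ± 7.34 in HFD+AC261066. The log2 difference between HFD+AC261066 and HFD was 0.39 (95% interval 0.10 to 0.67, limma unadjusted p = 0.0103) and did not pass over all genes (adjusted p = 0.167); it passed when HFD replicate 4 (0.48, adjusted p = 0.0899) or HFD+AC261066 replicate 6 (0.48, adjusted p = 0.0574) was left out. Against chow, *Cd79a* differed by 0.31 in HFD+AC261066 livers (SE 0.14, adjusted p = 0.157), or by 0.40 without HFD+AC261066 replicate 6 (adjusted p = 0.0614), and by -0.08 in HFD livers (adjusted p = 0.708).

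*Cd79b* (mm9 chromosome 11, 106172655 to 106176076) ran from 4.63 to 5.07 in chow livers (median 4.67), from 4.78 to 5.11 in HFD (median 4.92) and from 4.82 to 5.22 in HFD+AC261066 (median 4.99). Chow replicate 6 held the highest chow value; all 6 livers of HFD and all 6 of HFD+AC261066 lay above the chow median, and 1 of each above every chow liver. *Cd79b* rose by 0.23 in HFD+AC261066 livers against chow (SE 0.09, limma adjusted p = 0.0956), close to the threshold. That call was lost in 20 of 29 alternatives, among them leaving out chow replicate 1, 2, 4 or 5, HFD replicate 2, 3, 4 or 6 or HFD+AC261066 replicate 1, 3, 4 or 5 (adjusted p from 0.102 to 0.177). The HFD difference from chow was 0.18 (SE 0.09, adjusted p = 0.158), and 0.25 without chow replicate 6 (adjusted p = 0.0462). HFD+AC261066 and HFD livers differed by 0.06 (95% interval -0.13 to 0.24) for this chain.

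Within each set of 9 libraries, 3 per group, several of these differences were unlike. *Cd3e* in HFD+AC261066 against chow stood at -0.03 in libraries 1 to 3 and at 0.32 in libraries 4 to 6, where it was called (adjusted p = 0.0506), the difference between sets with the smallest p among the markers (limma interaction, unadjusted p = 0.0236, adjusted p = 0.20). *Gzmb* in HFD against chow stood at 0.13 and -0.20 (interaction adjusted p = 0.430), and *Cd3g* at -0.02 and 0.24 (adjusted p = 0.482). The *Cd8b1* difference of HFD from chow was 0.17 and 0.13 (interaction adjusted p = 0.925), although neither set alone passed the test. The *Cd79a* difference of HFD+AC261066 from HFD was 0.44 and 0.34 in the sets, and that of *Cd3g* from chow 0.19 and 0.32. No marker's interaction passed an adjusted p of 0.1.

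**Figure D3:**
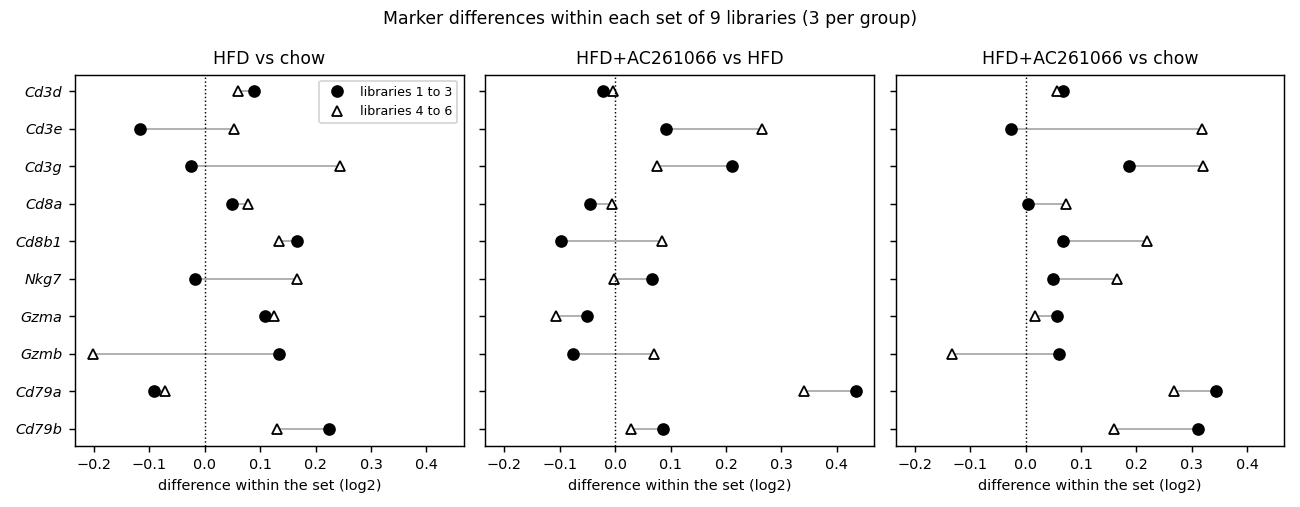
Log2 difference of each marker (horizontal axis) within libraries 1 to 3 (filled circles) and within libraries 4 to 6 (open triangles), 3 livers per group in each set, for the 3 comparisons. *Cd79a* lies right of 0 in both sets in the comparisons of HFD+AC261066 with HFD and with chow. *Cd3e*, *Cd3g*, *Cd8b1*, *Nkg7* and *Gzmb* each change side in some comparison.

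Other genes of the T cell receptor complex and its signalling were described from a list of 18, of which 15 were tested. In HFD against chow 4 rose and 1 fell (14.2% and 15.0% of all tested genes), in HFD+AC261066 against HFD none rose and 1 fell (1.27% and 1.54%), and in HFD+AC261066 against chow 4 rose and none fell (8.22% and 8.45%). The median difference over the list was 0.06, 0.09 and 0.11. *Cd247*, the zeta chain that completes the CD3 complex, rose by 0.21 in HFD+AC261066 against chow (limma adjusted p = 0.0385) and differed by 0.07 in HFD (adjusted p = 0.440). *Cd4*, the coreceptor of helper T cells, rose by 0.41 with HFD (adjusted p = 0.0125) and by 0.57 with HFD+AC261066 (adjusted p = 0.0050), both against chow. *Fyb*, an adaptor of T cell and myeloid signalling, rose by 0.25 and 0.35 in the same comparisons (adjusted p = 0.0920 and 0.0445). *Themis*, needed for the selection of thymocytes, differed by more than any CD3 chain. It rose by 2.37 with HFD (adjusted p = 2.7e-05), fell by 1.45 in HFD+AC261066 against HFD (adjusted p = 0.0148) and stood 0.91 above chow in HFD+AC261066 (adjusted p = 0.0415). Its mean log2 value was 6.20, beside 3.24 (*Cd3d*) to 3.47 (*Cd3g*) for the CD3 chains. Which cells its RNA came from was not tested.

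Among 17 tested genes of T cell identity and memory, 3 rose with HFD, near the 14.2% of all tested genes, 3 rose in HFD+AC261066 against chow, beside 8.22% of all, and none was called between HFD+AC261066 and HFD. *Thy1*, a surface glycoprotein of T cells, rose by 0.34 in HFD+AC261066 against chow (limma adjusted p = 0.0272). *Ccr7*, the lymph node homing receptor, rose by 0.22 with HFD (adjusted p = 0.0279).

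Of 24 genes of NK cells and innate lymphocytes 11 were tested, and *Ncr1*, the receptor NKp46 that defines NK cells, had a mean log2 value of 1.16, under the minimum. *Cd160*, a receptor of NK and cytotoxic T cells, rose by 0.18 with HFD and by 0.16 with HFD+AC261066 against chow (limma adjusted p = 0.0080 and 0.0299) and was the only gene of this list called. That was 1 of 11 in either comparison, near the 14.2% (HFD) and 8.22% (HFD+AC261066) of all tested genes that rose. Among 8 tested genes of cytotoxic granules, all 8 differences of HFD from chow were positive (51.2% of all tested genes) and 3 passed (14.2% of all rose). The summed level of the whole list in HFD livers was 1.01 times that in chow, with 1 of 6 HFD livers above every chow liver. That sum, 20382 on average in chow, is carried by the most abundant genes of the list. It does not describe the called genes, whose mean log2 values were only 4.79 to 7.63. The called genes were *Serpinb9*, an inhibitor of granzyme B (0.51, adjusted p = 0.0152), *Ccl5*, a chemokine stored in cytotoxic granules (0.38, adjusted p = 0.0159), and *Unc13d*, which primes granules for release (0.31, adjusted p = 0.0242). *Srgn*, the granule proteoglycan serglycin, rose by 0.27 in HFD+AC261066 against chow (adjusted p = 0.0553). *Gzmd*, *Gzme*, *Gzmf*, *Gzmg* and *Gzmn* were listed at 0 in all 18 libraries.

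Of 18 tested B cell genes, 5 rose with HFD, where 14.2% of all tested genes rose, and 11 rose in HFD+AC261066 against chow, where 8.22% did. In the latter all 18 differences were positive, beside 50.7% of all tested genes, and their median was 0.26; none was called between HFD+AC261066 and HFD, where 15 differences were positive (median 0.08). Without HFD+AC261066 replicate 3 the counts were 6, 12 and 0, where 2038, 1391 and 143 of 13268 tested genes rose. *Cd22*, an inhibitory coreceptor of B cells, rose by 0.26 and 0.27 against chow (limma adjusted p = 0.0110 and 0.0169), *Cd72*, another inhibitory B cell receptor, by 0.43 and 0.38 (adjusted p = 0.0078 and 0.0286), and *Ly6d*, a surface protein of early B lineage cells, by 0.84 and 0.83 (adjusted p = 0.0126 and 0.0263). *Cr2*, the complement receptor CD21 of mature B cells, rose by 0.22 with HFD (adjusted p = 0.0067) and stood 0.13 above chow in HFD+AC261066 (adjusted p = 0.112). Of 5 tested plasma cell genes, *Prdm1* rose by 0.21 and *Igj*, the immunoglobulin J chain, fell by 0.51 with HFD (adjusted p = 0.0336 and 0.0803).

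Markers of other cells were called in the same comparisons, in which 14.2% (HFD) and 8.22% (HFD+AC261066) of all tested genes rose against chow and 15.0% and 8.45% fell. Of 10 pan-leukocyte genes 8 rose with HFD and 6 in HFD+AC261066 against chow, and their summed level ran from 2338 to 2628 in chow, from 2831 to 3226 in HFD and from 2811 to 3435 in HFD+AC261066. Kupffer cell and macrophage genes rose in 4 and 7 of 14, dendritic cell genes in 4 and 0 of 10, and neutrophil and monocyte genes in 4 and 2 of 10. Sinusoidal endothelial genes rose in 0 and 2 of 8, and in 2 of 8 between HFD+AC261066 and HFD. Red blood cell genes rose in 1 and 1 of 4, no platelet gene of 4 was called, and hepatocyte genes fell in 5 and 3 of 8. *Hba-a1*, *Hba-a2* and *Hbb-b2*, defining genes of red blood cells, and *Klra4* of NK cells were listed at 0 in all libraries. *Alas2*, of the same red blood cell list, had a mean log2 value of 11.5. Whether the values of 0 stand for absent transcripts was not tested. The summed level of the 10 lymphocyte markers themselves ran from 116 to 131 in chow, from 120.0 to 139 in HFD and from 127 to 153 in HFD+AC261066, with 1 HFD liver and 4 HFD+AC261066 livers above every chow liver. Without HFD+AC261066 replicate 3, Kupffer cell genes rose in 8 and 5 of 14 and pan-leukocyte genes in 9 and 5 of 10. In that fit 2038 and 1391 of 13268 tested genes rose against chow. The part of these other cells in the marker differences was not tested.

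**Figure D4:**
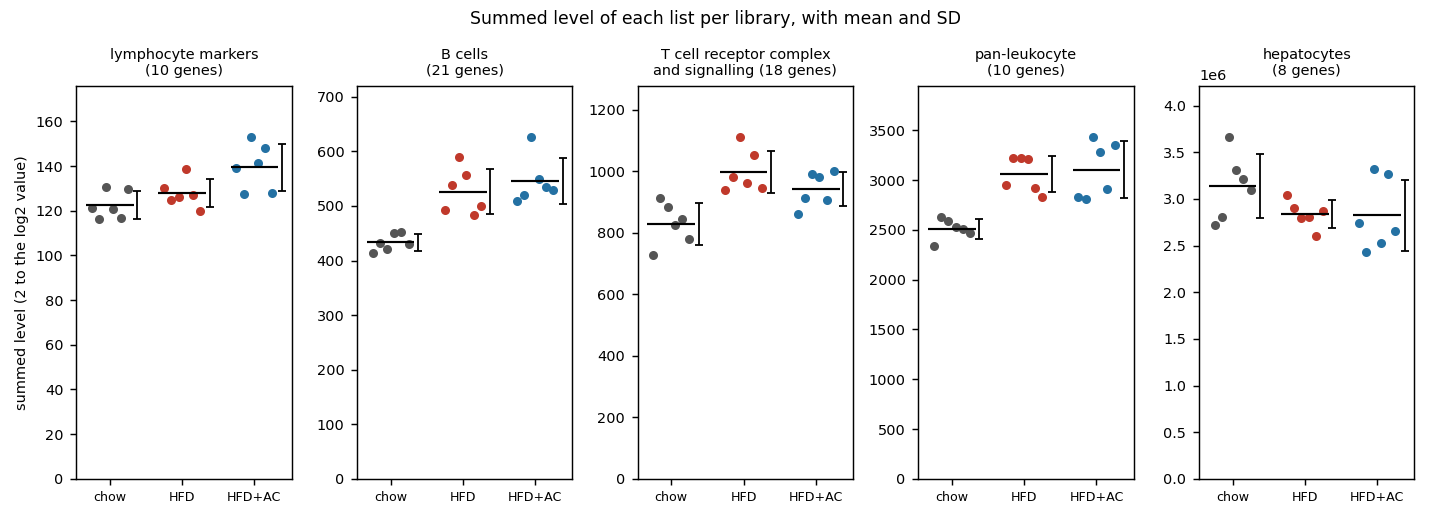
Summed level (2 to the log2 value, added over the genes of a list; vertical axes start at 0) in each library of the chow, HFD and HFD+AC261066 (HFD+AC) groups, with group means and SD. All 6 HFD and all 6 HFD+AC261066 livers exceed every chow liver for the B cell and pan-leukocyte lists, whereas the 10 lymphocyte markers overlap between groups. For the T cell receptor list all 6 HFD and 4 HFD+AC261066 livers do. All 6 HFD livers also do for the T cell identity and red blood cell lists, which are not drawn. How often other sets of genes do so was not computed.

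Within groups, 8 pairs of markers were tested for varying together, 5 of them partners of a complex or family. The permutation test shuffled all 18 values freely, although group means had been subtracted and the 2 library sets levelled. Its p values are therefore somewhat too small. Over the 18 livers, with group means subtracted, *Cd3e* and *Cd3g* had r = 0.63 (permutation p = 0.0053, adjusted over 8 pairs p = 0.0423; Spearman rho = 0.58, p = 0.0126, adjusted p = 0.0502), and r was 0.52 without the 2 livers farthest from the *Cd3e* median, 0.79 in libraries 1 to 3 and 0.64 in libraries 4 to 6. *Cd3d* and *Cd3g*, the divergent neighbours, had r = 0.03 (adjusted p = 0.901; rho = -0.04). *Cd79a* and *Cd79b* had r = 0.46 (permutation p = 0.0553, adjusted p = 0.221) and rho = 0.60 (p = 0.0099, adjusted p = 0.0502), with r at 0.50 without the 2 farthest livers and at 0.65 and 0.37 within the sets. *Cd8a* and *Cd8b1* had r = 0.30 (adjusted p = 0.445; rho = 0.31), and *Gzma* and *Gzmb* r = 0.04 (adjusted p = 0.901; rho = 0.03). Outside these partners, r was -0.11 for *Cd3e* and *Cd79b* (adjusted p = 0.884, rho = -0.07) and 0.36 for *Cd3e* and *Nkg7* (adjusted p = 0.387, rho = 0.29). For *Gzma* and *Nkg7*, both markers of NK and cytotoxic T cells, r was -0.19 (adjusted p = 0.732, rho = -0.23). Over all 45 pairs of the markers the median r was -0.0013, and 22 were positive. The highest r were not confined to partners of a complex: *Cd3g* and *Nkg7* had 0.63, *Cd8a* and *Gzma* 0.58 and *Cd3e* and *Cd8a* 0.53, pairs picked after their values were seen and given with no test. Without HFD+AC261066 replicate 3, r was 0.68 for *Cd3e* and *Cd3g* and 0.39 for *Cd79a* and *Cd79b*.

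**Figure D5:**
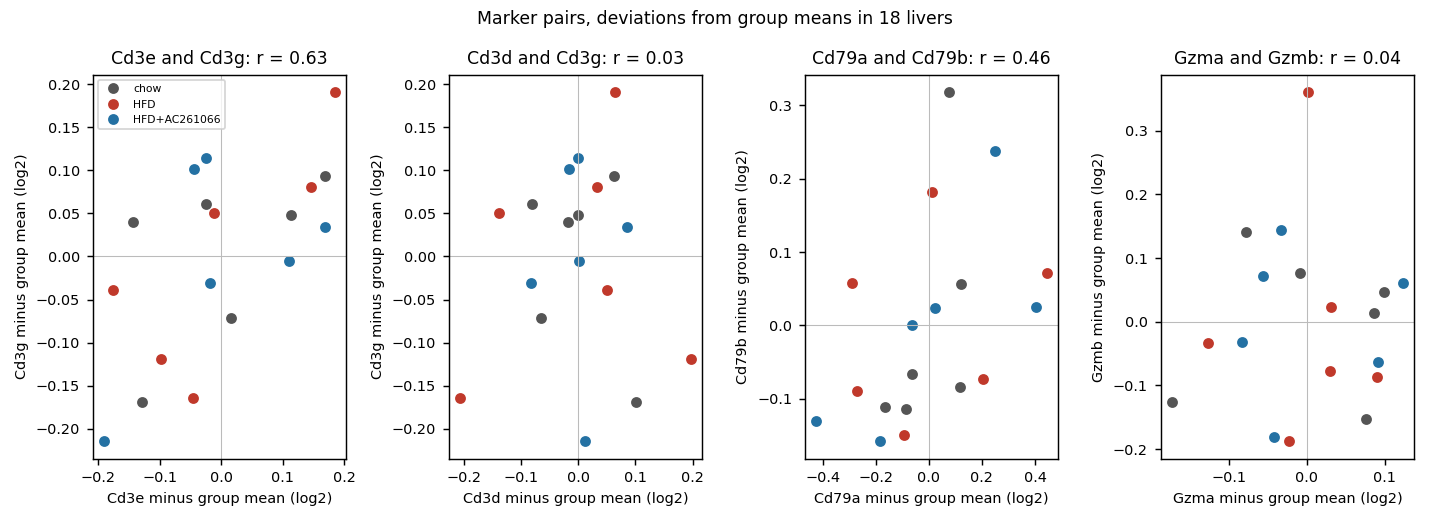
Deviation of each liver from its group mean (log2) for *Cd3e* and *Cd3g*, *Cd3d* and *Cd3g*, *Cd79a* and *Cd79b*, and *Gzma* and *Gzmb*, with 18 livers per panel coloured by group. Points rise together for *Cd3e* and *Cd3g* (r = 0.63) and show no slope for *Cd3d* and *Cd3g* (r = 0.03).

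The tested genes with the pattern most like each marker over all 18 libraries were named by Pearson r, as a description in which group differences and library effects are shared. The nearest gene to *Cd3g* was *Cd247*, its partner in the receptor complex (r = 0.86), and the nearest to *Cd79a* was *Faim3*, an Fc receptor for IgM on B cells (r = 0.80), followed by *Pcbp3* (0.80) and the T and NK cell adhesion molecule *Cd2* (0.77). *Cd3e* was nearest to *Prkce* (0.90), *Brd2* (0.81) and *Bcl2* (0.79), and *Cd8b1* to *Arap3* (0.89), *Stat2* (0.89) and *Mlxipl* (0.87), none of which is specific to T cells. For *Cd3d*, *Cd8a*, *Nkg7*, *Gzma*, *Gzmb* and *Cd79b* the nearest genes were *Gm3435* (0.79), *Son* (0.79), *Pter* (0.76), *Btbd16* (0.76), *Kdm3b* (0.73) and *Xpnpep1* (0.78).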

How the data were processed

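Liver RNA of 18 mice was read in paired ends of 51 bases. The authors aligned the reads with TopHat2 2.0.11 to mm9, counted them per gene with HTSeq 0.6.1, analysed them with DESeq2 1.6.3 and removed a batch effect with limma's removeBatchEffect, and bcl2fastq 2.17 and cutadapt stand in the submitters' processing notes. What the authors deposited are log2 values, from -3.98 to 21.4, for each gene and library. They are not counts, so that depth per library is unknown and precision rests on the spread between livers. The labels' growth protocol and library kit, for neural stem cells and DNA, go against the methods of the study. No column belonged to other samples (0).

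Of 20512 genes, 3620 were listed at 0 in all libraries. Genes whose log2 values averaged 2 or more, 13268 in all, were fitted with limma 3.58.1 (R 4.3.3) on all 18 libraries, with terms for group and library set (1 to 3, 4 to 6; 14 residual degrees of freedom) and a variance trend, and an adjusted p (Benjamini-Hochberg) under 0.1 made a call. Pair correlations used 100000 permutations. Genes named were the 10 markers, up to 4 called genes of smallest p per list, and up to 3 genes nearest to each marker. Some genes that this rule names are not reported here. Members, lists and tests were chosen with earlier results of these data known. Same-numbered libraries of different groups did not deviate together (r from -0.36 to 0.15), so the numbers were not used as pairs. Alternatives were no library set term, the replicate block, other minimums, normalizations, variance settings, samples and thresholds. Python 3.11.15 (pandas 2.3.3, scipy 1.17.1, numpy 2.4.6, matplotlib 3.10.9) was used. Positions of genes are from an mm9 annotation and promoters from RefSeq on GRCm38.p6.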

Additional observations from a re-analysis of the deposited data

How the results depend on the processing

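Of 290 alternative values of single markers in each comparison, 276 (HFD against chow), 269 (HFD+AC261066 against HFD) and 251 (HFD+AC261066 against chow) kept their direction and their side of the threshold. Markers called in HFD against chow numbered 0 in libraries 1 to 3, 2 in libraries 4 to 6 (*Cd3g*, higher, and *Gzmb*, lower), 0 under quantile normalization and 1 to 2 with 1 library left out. Between HFD+AC261066 and HFD they numbered 0 to 1 with 1 library left out. In HFD+AC261066 against chow they numbered 0 in libraries 1 to 3, 1 under quantile normalization, with only the 2 groups compared and at a threshold of 0.05, and 1 to 4 with 1 library left out. In libraries 4 to 6 they numbered 3, with *Cd3e* called (0.32, adjusted p = 0.0506) and *Cd79b* not (0.16, adjusted p = 0.418). With a replicate block, 1 marker, *Cd3g*, was called in that comparison, and *Cd8b1* (limma adjusted p = 0.103) and *Cd79b* (0.107) lost their calls; the counts of 1 and 0 in the other comparisons did not change. The cause was not tested.

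Genes called in all numbered 3880, 372 and 2212 in the 3 comparisons. They numbered 922, 23 and 123 in libraries 1 to 3, and 3061, 620 and 2857 in libraries 4 to 6. Quantile normalization gave 3354, 421 and 1716, and the replicate block 3636, 292 and 1863. With 1 library left out, they ran from 3083 to 4159, from 125 to 683 and from 1387 to 2811. For HFD+AC261066 against chow, 1634 were called with only the 2 groups compared and 1239 at the threshold of 0.05. For HFD+AC261066 against HFD, 581 were called without the set term and 172 at the threshold of 0.05.

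Reversed values all belonged to uncalled differences. Of HFD against chow, *Cd3e* stood at 0.053 in libraries 4 to 6, and *Cd3g* at -0.024, *Nkg7* at -0.017 and *Gzmb* at 0.13 in libraries 1 to 3; with 1 library left out, *Cd3e* ran from -0.072 to 0.0054 and *Gzmb* from -0.11 to 0.0064. Of HFD+AC261066 against HFD, *Cd8b1* stood at 0.085, *Nkg7* at -0.0019 and *Gzmb* at 0.069 in libraries 4 to 6, and *Cd8b1* at 0.0087 and *Gzmb* at 0.019 under quantile normalization. With 1 library left out in that comparison, *Cd3d* ran from -0.057 to 0.029, *Cd8a* from -0.062 to 0.0080, *Cd8b1* from -0.041 to 0.025, *Nkg7* from -0.017 to 0.090 and *Gzmb* from -0.043 to 0.074. Of HFD+AC261066 against chow, *Cd3e* stood at -0.026 and *Gzmb* at 0.059 in libraries 1 to 3, and *Gzmb* ran from -0.070 to 0.0021 with 1 library left out. Pair correlations moved to 0.79 (*Cd3e* and *Cd3g*) and 0.65 (*Cd79a* and *Cd79b*) in libraries 1 to 3 and to -0.48 (*Gzma* and *Nkg7*) in libraries 4 to 6. They reversed for *Cd3d* and *Cd3g* (-0.029 in libraries 4 to 6, -0.050 without the 2 farthest livers), *Gzma* and *Gzmb* (-0.27 and -0.15) and *Cd3e* and *Cd79b* (0.097 in libraries 1 to 3). The cause was not tested. List counts and pair correlations without HFD+AC261066 replicate 3 were added after seeing the data. There, in HFD+AC261066 against chow, neutrophil and monocyte genes rose in 1 of 10 and granule genes in 2 of 8. Beside them 1391 of 13268 tested genes rose. Depth per library is unknown, so that no counting error can be given for these low values.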
